A study of Mus musculus with 20 samples.

Results

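Of the 6954 H3K27me3 peaks called in wild-type (WT) mouse embryonic fibroblasts (MEFs), 1038 were present in every H3K27me3 list of the study. These shared peaks were selected on presence alone: a WT MEF peak was kept when a peak in each of the other 9 lists overlapped it by at least 1 bp. They made up 14.9% of the WT MEF list (95% Wilson interval 14.1 to 15.8). The 10 lists came from chromatin immunoprecipitation sequencing (ChIP-seq) with 1 library per group, so no test across replicates was possible, and each interval below covers counting error only. Neighbouring peaks are not independent of each other.

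The study followed the reprogramming of MEFs to pluripotency by OSKM, the transcription factors OCT4, SOX2, KLF4 and MYC delivered by virus, and asked how the histone demethylase JMJD3 acts in it. Untreated MEFs (day 0) were Jmjd3+/+ of the strain C57BL/6J-OG2, called WT here, or Jmjd3-/- of the strain C57Bl6J, called KO here, so that genotype and the strain label cannot be told apart from the labels. The study's text describes WT and KO MEFs of a reprogramming experiment as littermates lacking OG2, and whether the ChIP-seq used the same cells was not stated. At day 5 and day 10 of OSKM, WT and KO cells carried either a FLAG control or Jmjd3 overexpression (JMJD3 hereafter), which gave the other 8 lists. The study's figure legends place these cells, and those of the KLF4 and JMJD3 lists below, in medium with vitamin C. The study states that vitamin C boosts the catalytic activity of JMJD3. Its use in the day 0 MEFs was not stated, so vitamin C and OSKM cannot be told apart where MEF lists are set beside the others. All 4 KLF4 and JMJD3 lists came from day 5 cells: KLF4 in WT cells with FLAG or JMJD3, and FLAG-tagged JMJD3 with OSKM or with OSlowKM, in which K, for KLF4, is low. The titles of the FLAG-tagged JMJD3 samples name no genotype. The labels give no sort of the day 5 and day 10 cultures, so the lists do not show which of their cells carried a peak, and fewer marked cells and less mark per cell cannot be told apart.

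H3K27me3 is deposited by the Polycomb repressive complex PRC2 and marks silent genes. In mammalian cells PRC2 is found mainly at unmethylated CpG islands, GC-rich stretches that keep the CG dinucleotides that most of the genome has lost. Many genes marked in this way encode developmental transcription factors, signalling ligands and proteins of specialised cells such as neurons. JMJD3 removes methyl groups from H3K27.

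The sequences of the shared peaks were of more than a single kind. The central 200 bases of the following peaks are shown because they are the extremes of the set, on the plus strand of GRCm38 (the build also called mm10), in lower case with each CG dinucleotide in capitals. Among shared peaks meeting the base criteria of a CpG island, the best ranked outside annotated UTRs lay near Gm9945 (a predicted gene), Egr4 (a zinc-finger transcription factor), Ajm1 (a component of apical junctions) and Elfn2 (a synaptic membrane protein), after a peak beside an rRNA gene that is shown further on. They held 19, 15, 15 and 17 CG dinucleotides in 200 bases, with no repeat-masked base.
Gm9945, chr11:53479340-53479539: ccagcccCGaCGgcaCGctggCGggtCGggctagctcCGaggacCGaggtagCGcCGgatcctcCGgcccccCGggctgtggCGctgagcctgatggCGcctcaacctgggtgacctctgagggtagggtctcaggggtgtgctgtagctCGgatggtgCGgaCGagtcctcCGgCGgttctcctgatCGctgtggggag
Egr4, chr6:85512369-85512568: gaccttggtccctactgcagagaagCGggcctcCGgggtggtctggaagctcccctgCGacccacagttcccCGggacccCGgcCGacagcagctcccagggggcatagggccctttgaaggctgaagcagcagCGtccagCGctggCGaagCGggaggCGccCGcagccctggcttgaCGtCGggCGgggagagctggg
Ajm1, chr2:25578765-25578964: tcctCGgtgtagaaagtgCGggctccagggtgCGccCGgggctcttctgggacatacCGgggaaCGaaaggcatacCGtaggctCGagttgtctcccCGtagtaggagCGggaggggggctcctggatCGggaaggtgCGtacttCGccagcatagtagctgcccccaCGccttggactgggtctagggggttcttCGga
Elfn2, chr15:78718868-78719067: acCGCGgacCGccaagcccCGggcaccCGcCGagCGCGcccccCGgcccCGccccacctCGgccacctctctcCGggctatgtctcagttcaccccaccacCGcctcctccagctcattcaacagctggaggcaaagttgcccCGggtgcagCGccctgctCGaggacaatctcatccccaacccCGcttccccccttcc

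The shared peaks with the best scores of all did not look like this. By the worst percentile over the 10 lists, the 4 leading peaks outside UTRs lay 132 bp upstream of CT010467.1 (an annotated rRNA gene), at Gm10800 (a predicted gene), within an intron of the noncoding RNA gene Gm33838, and in the first kilobases of Aida (an axis formation protein). Their central 200 bases held 3, 6, 3 and 6 CG dinucleotides and were repeat-masked over 100%, 97%, 100% and 21.5% of their length.
CT010467.1, chr17:39848859-39849058: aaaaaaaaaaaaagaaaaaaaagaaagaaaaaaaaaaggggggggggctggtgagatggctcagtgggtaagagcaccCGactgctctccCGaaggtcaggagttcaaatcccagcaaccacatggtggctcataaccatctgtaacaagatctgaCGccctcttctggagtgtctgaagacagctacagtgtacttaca
Gm10800, chr2:98666715-98666914: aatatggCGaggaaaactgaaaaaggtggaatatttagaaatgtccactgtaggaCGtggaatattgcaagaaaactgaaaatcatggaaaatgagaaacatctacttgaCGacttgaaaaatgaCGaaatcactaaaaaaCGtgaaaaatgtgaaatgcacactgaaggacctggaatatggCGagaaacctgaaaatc
Gm33838, chr9:35305322-35305521: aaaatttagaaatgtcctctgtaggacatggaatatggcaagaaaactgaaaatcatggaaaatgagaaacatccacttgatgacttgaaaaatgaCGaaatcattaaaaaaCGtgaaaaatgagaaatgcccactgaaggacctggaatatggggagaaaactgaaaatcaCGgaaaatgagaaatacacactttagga
Aida, chr1:183299266-183299465: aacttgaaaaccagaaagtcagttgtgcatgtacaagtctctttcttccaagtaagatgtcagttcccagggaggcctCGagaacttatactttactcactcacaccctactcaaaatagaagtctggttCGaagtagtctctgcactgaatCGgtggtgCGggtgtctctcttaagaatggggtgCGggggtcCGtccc

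For contrast, the CpG-poorest shared peak that could be shown lay 5427 bp upstream of the noncoding gene Gm34152, with 3 CG dinucleotides in its 1000 bp and 0 in the stretch below. A shared peak 6 bp upstream of 4931408C20Rik had 0 in its 1000 bp, but its centre overlapped an annotated UTR. The peak at Ggt1, a glutathione-metabolising enzyme, had a CpG ratio of 0.184, near the median of 0.186 among WT MEF peaks found in no other list. Its GC content of 55% was above the upper quartile of those peaks (49.9%).
Gm34152, chr15:98701518-98701717: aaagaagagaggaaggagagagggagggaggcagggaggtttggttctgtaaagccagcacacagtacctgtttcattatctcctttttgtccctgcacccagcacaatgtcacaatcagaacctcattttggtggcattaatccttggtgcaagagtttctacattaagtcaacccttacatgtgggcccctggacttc
Ggt1, chr10:75564398-75564597: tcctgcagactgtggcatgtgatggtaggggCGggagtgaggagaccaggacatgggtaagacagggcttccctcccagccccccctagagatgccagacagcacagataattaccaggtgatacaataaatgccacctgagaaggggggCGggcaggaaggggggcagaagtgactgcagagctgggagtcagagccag

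Presence across the lists had a U shape. WT MEF peaks found in no other list were most numerous (1564, or 22.5%), the number fell to 416 among peaks in 6 lists, and it rose again to 668 for peaks in 9 lists and 1038 for those in all 10. The list that a 9-list peak missed was day 10 WT JMJD3 in 283 of the 668 cases and KO MEF in 186, the shortest of the 10 H3K27me3 lists with 3045 and 4113 peaks. Just 8 of the 668 were missing from day 5 WT FLAG, a list of 6428 peaks. Without the day 10 WT JMJD3 list the shared set would hold 1321 peaks, and without the KO MEF list 1224.

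**Figure D1:**
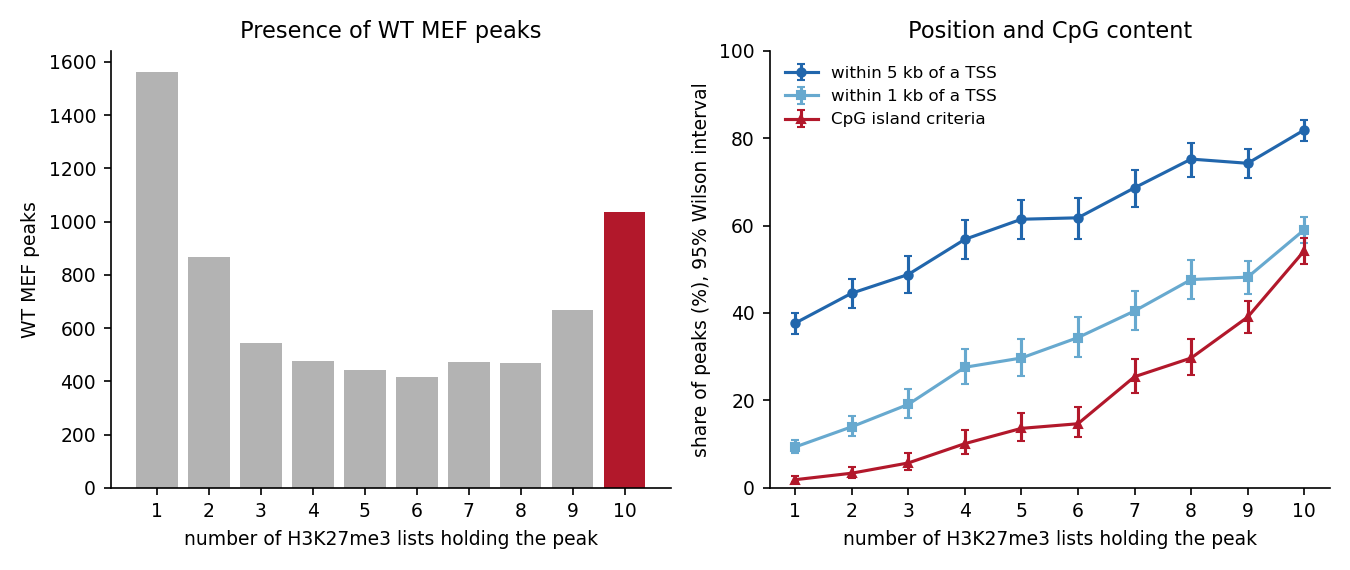
Left, number of WT MEF H3K27me3 peaks (vertical axis) by the number of H3K27me3 lists that hold them (horizontal axis), with the 1038 peaks present in all 10 lists in red. Right, the share of peaks in each class (percent, with 95% Wilson intervals) within 5 kb (dark blue) or 1 kb (light blue) of a TSS, or meeting CpG island criteria (red); each share is lowest for peaks of the WT MEF list alone (37.7%, 9.34% and 1.85%) and highest for the shared peaks (81.9%, 59.1% and 54.2%).

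The rule had a sharp edge, given here once. The thinnest overlaps that still counted were 5 bp at Prrxl1 (a homeobox gene of sensory neurons), 7 bp at Minar1 and 15 bp in a peak 15037 bp from Nkx2-1. Just outside, a peak near Snap91 missed the day 10 WT FLAG list by 1 bp, a peak near Atp5g2 missed day 5 WT JMJD3 by 3 bp, and a peak near Lmx1b missed day 5 KO JMJD3 by 3 bp. Of the 668 peaks in 9 lists, 104 had a peak of the missing list within 1 kb. Most shared peaks were not at that edge: the midpoint of the overlapping peak lay a median of 160 to 229.5 bp from the WT MEF midpoint, depending on the list, and 528 of the 1038 were overlapped by at least 500 bp in each of the other 9 lists. In 38 shared peaks at least 1 list overlapped by fewer than 100 bp.

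Shared peaks were rich in CpG. Their median GC content was 60.6% (quartiles 55.5% and 65%), against 50.2% (45.3% to 55.8%) for the other 5916 WT MEF peaks and 46.3% for peaks of the WT MEF list alone. The median ratio of observed to expected CpG was 0.628 against 0.300 and 0.186, and the median peak held 56 CG dinucleotides against 18 and 10. CpG island criteria, here GC of at least 50% and a ratio of at least 0.6 over the 1000 bp, were met by 563 of 1038 shared peaks (54.2%, 51.2 to 57.2) and by 13.2% (12.3 to 14.0) of the others, a difference of 41.1 points (37.9 to 44.2). Over all WT MEF peaks the share was 19.3%. Peaks in 9 lists stood in between at 39.1%, 15.2 points (10.3 to 19.9) below the shared peaks.

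Shared peaks also had higher scores than the others, with a median of 49.8 against 10.3 in the WT MEF list, so the CpG contrast was repeated within classes of score. In a split chosen after seeing the data, 842 of the 1038 shared peaks were in the best-scoring 25% of the WT MEF list. Within that class 58.6% of the shared and 37.5% of the other 898 peaks met the criteria, a difference of 21.0 points (16.4 to 25.5). In the next 25% the shares were 37.2% of 172 and 15.7% of 1565, a difference of 21.5 points (14.4 to 29.1). The contrast was thus about as large in both classes and smaller than over the whole list. The classes narrow the gap in score without closing it, with medians of 59.3 for shared and 39.8 for other peaks in the first and 19.3 and 16.1 in the second. The lower classes held only 17 and 7 shared peaks.

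**Figure D2:**
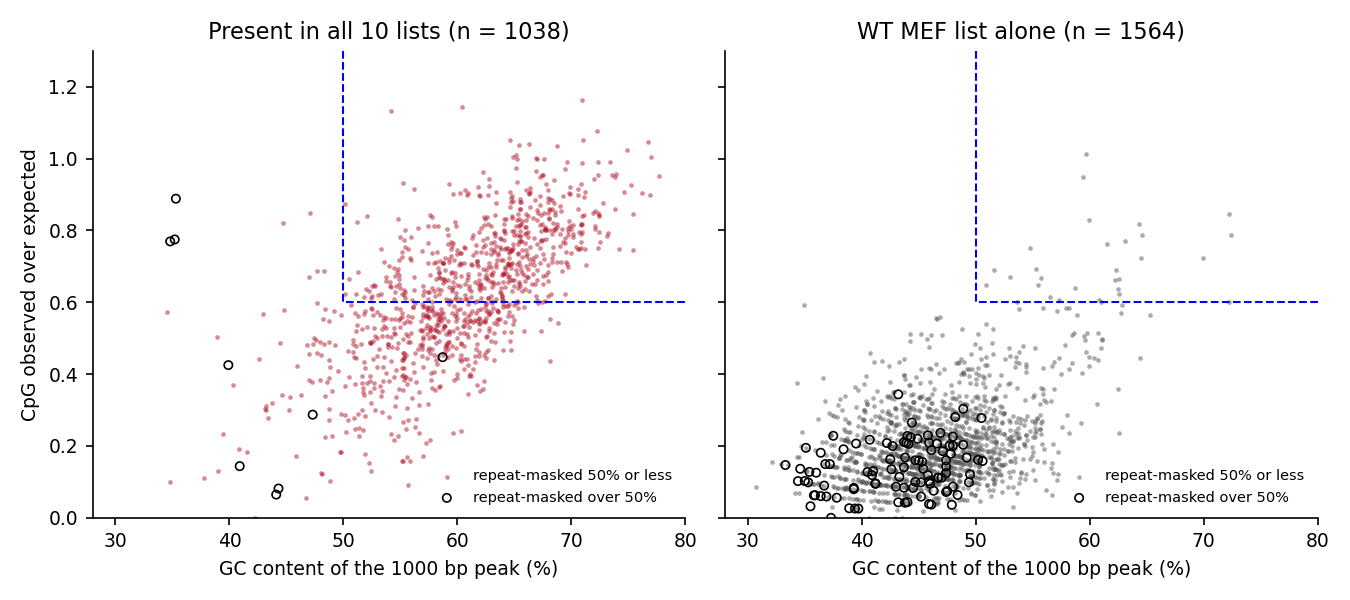
GC content (percent, horizontal axis) and observed over expected CpG (vertical axis) of each 1000 bp peak, for the 1038 peaks present in all 10 lists (left) and the 1564 peaks of the WT MEF list alone (right). The region up and right of the dashed lines meets the CpG island criteria, with 54.2% of points on the left and 1.85% on the right; open circles are peaks over 50% repeat-masked, 9 on the left, most of them at low GC.

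Shared peaks lay close to gene starts. The median distance from peak midpoint to the nearest annotated transcription start site (TSS) was 750.5 bp, against 3992 bp for the other WT MEF peaks. Within 5 kb of a TSS were 850 of 1038 (81.9%, 79.4 to 84.1) shared and 54.3% (53.0 to 55.5) of the other peaks, a difference of 27.6 points (24.8 to 30.2), with 58.4% over the whole list. Within 1 kb the shares were 59.1% and 25.6%. Peaks in 9 lists stood in between, at 74.3% within 5 kb and 48.2% within 1 kb. These were 7.64 points (3.62 to 11.7) and 10.9 points (6.01 to 15.6) below the shared peaks. In the best-scoring 25% of the WT MEF list the 5 kb difference was 7.10 points (3.34 to 10.8) and the 1 kb difference 13.5 points (8.83 to 18.1).

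Near the TSS the peak midpoint lay more often on the transcribed side. Midpoints 0 to 1 kb downstream of the nearest TSS made up 44.2% (41.2 to 47.3) of shared peaks, and those 0 to 1 kb upstream 14.8% (12.8 to 17.1). Among the other WT MEF peaks these shares were 16.8% and 8.81%. The midpoint was in an exon in 40.2% of shared peaks and in 15.4% of the others, and between genes in 18.8% and 43.5%. Introns held 41.0% of both.

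**Figure D3:**
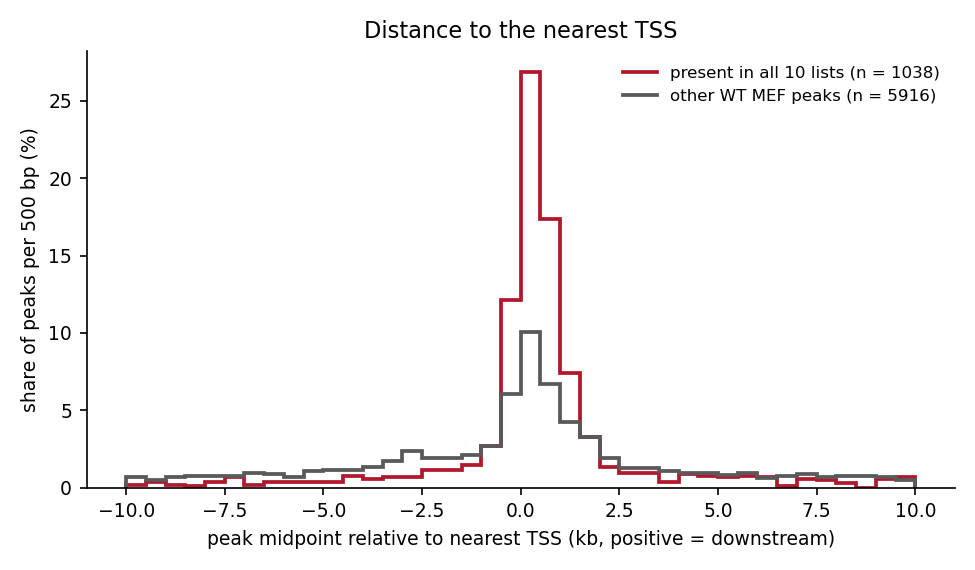
Share of peaks (percent per 500 bp bin, vertical axis) by signed distance of the peak midpoint from the nearest TSS in kb (horizontal axis, positive downstream), for the 1038 shared peaks (red) and the 5916 other WT MEF peaks (grey). The red line peaks in the 500 bp just downstream of the TSS, and 44.2% of shared peaks lie 0 to 1 kb downstream.

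The 188 shared peaks beyond 5 kb were still CpG-rich: 75 of them (39.9%, 33.2 to 47.0) met the CpG island criteria, against 3.59% (2.95 to 4.36) of the 2705 other distal WT MEF peaks. Near a TSS the shares were 57.4% and 21.2%. As a reference, 44.4% of 1000 bp windows centred on the starts of protein-coding genes met the same criteria. The shared peaks farthest from any TSS were chr1:22533366-22534365, 206898 bp from Gm26866 and with 106 CG dinucleotides, a pair 10350 bp apart on chromosome 2 between Tfap2c (a transcription factor of the trophoblast and germ line) and Gm22773, at 135926 and 124576 bp, a peak 100470 bp from Gm37667, and a peak 96362 bp from Gm24376, both on chromosome 4.

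Shared peaks were 14.9% of the list, and 341 of them (32.9%, 30.1 to 35.8) had another WT MEF peak of any kind within 10 kb. Of the other WT MEF peaks 39.4% had one, a difference of -6.55 points (-9.61 to -3.38). With shared peaks linked when 10 kb or less apart, the 1038 formed 995 domains, of which 958 held a single shared peak, 32 held 2, 4 held 3 and 1 held 4. A second shared peak lay within 10 kb of 80 shared peaks (7.71%, 6.24 to 9.49). A set of 14.9% of the list has fewer neighbours of its own kind by its size. This share therefore does not show that shared peaks lie apart from each other. In WT MEF domains of 5 or more peaks 60 of 476 peaks were shared (12.6%, 9.92 to 15.9), an interval that includes the 14.9% of the whole list. In domains of 2 to 4 peaks 281 of 2196 were shared (12.8%, 11.5 to 14.3), and of the 4282 solitary WT MEF peaks 697 were shared (16.3%, 15.2 to 17.4). The largest block, 28 peaks over the Hoxc cluster, had 2 shared peaks, and the next, 19 peaks over the Hoxd cluster, also had 2. The block of 12 at Zic1 and Zic4, zinc-finger genes of the neural tube, had 0. The next blocks, of 9 or 10 peaks, had 1 to 3 each, with 3 of 9 at Pax2 (a kidney and eye factor) and 1 of 10 at Nkx2-5 (a heart factor).

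The domain with the most shared peaks, at Sfi1 (a centrosome protein) and Eif4enif1 (a carrier of the translation factor eIF4E) on chromosome 11, was CpG-poor and partly repetitive, with GC of 40.9% to 47.7% and repeat-masked shares of 16% to 80.1%. The domains of 3 lay at Fbxo2 and Fbxo44 (substrate adaptors of ubiquitin ligases), at Uncx (a homeobox gene of the axial skeleton), at Gfy, Pth2 and Slc17a7 (a vesicular glutamate transporter), and at Mast1 and Rtbdn. Among the 32 pairs were those at Cryba2 (a lens crystallin), Nr2e1 (a nuclear receptor of neural stem cells) and Ostm1, Gm19402 and Tspear, and Bhlha9 (a limb bHLH factor). By chromosome the shared percentage of WT MEF peaks ran from 10.8% to 19.7% on autosomes. On chromosome X it was 2 of 47 (4.26%, 1.17 to 14.2), and these 2, near Cldn34d and Mid1, both overlapped KLF4 peaks.

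A TSS of a protein-coding gene lay within 5 kb of 777 shared peaks, and 809 of 21924 protein-coding genes (3.69%) had a shared peak. Since 3140 genes had any WT MEF peak, 25.8% of those kept a peak in all 10 lists, and this is the level to read a gene group against. Gene groups were chosen with earlier results in view, and their counts are descriptions.

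Of a list of 148 homeobox genes, which pattern the body axis and organs, 32 had a shared peak. The list is not complete and lacks, for example, Prrxl1. Of the 148, 139 had some WT MEF peak, so that 23.0% (16.8 to 30.7) of those were shared, against 25.8% of all genes. The order of these shares depended on the overlap rule: with a peak within 1 kb counted as present they were 36.0% and 29.5%, without the KO MEF list 32.4% and 29.8%, without day 10 WT FLAG 28.1% and 26.8%, and with an overlap of 500 bp in every list 6.47% and 13.3%. The Hox genes with a shared peak were Hoxa13, Hoxb1, Hoxb7, Hoxb8, Hoxb13, Hoxc9, Hoxd1 and Hoxd13, 8 of 37, with Hoxb7 and Hoxb8 counted through the same peak. Others included Otx2, Nkx2-1, Pitx1, Six6 and Lmx1b, 24 of 102. Counted by peaks, 32 of 239 WT MEF peaks near homeobox genes were shared (13.4%, 9.65 to 18.3), against 22.9% (21.5 to 24.3) of the 3396 peaks near any protein-coding gene. That gap belongs to the rule of all 10 lists. The median peak of either group was in 6 other lists, and 74 of the 239 and 1219 of the 3396 were in 9 or 10 lists. List by list, homeobox peaks recurred less often in KO MEF (53.1% against 56.1%), day 5 KO FLAG and day 10 KO FLAG. In the rest they recurred more often, with 46.0% against 39.6% in day 10 WT JMJD3. Pax genes had 2 of 9 (Pax2, Pax8) and Sox genes 3 of 10 (Sox7, Sox10, Sox18).

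Other groups had larger shares. Forkhead genes had a shared peak in 10 of 24 genes with a WT MEF peak (41.7%, 24.5 to 61.2), among them Foxa1, Foxa3, Foxc1 and Foxf1. T-box genes had 5 of 10 (Tbx1, Tbx2, Tbx4, Tbx5, Tbx21), Gata genes 3 of 5 (Gata4, Gata5, Gata6, the factors of endoderm and heart), and bHLH genes 10 of 25, including Myod1 (muscle), Neurod1 and Neurod2 (neurons), Ptf1a (pancreas) and Tal1 (blood). The intervals of these 4 groups span from 23.1% to 88.2% and each includes the 25.8% of all genes. Genes of the BMP, FGF, WNT and Hedgehog families, nearly all secreted ligands, had 19 of 40 (47.5%, 32.9 to 62.5), including Fgf11 and another intracellular FGF homologous factor, and the ligands Bmp4, Fgf4, Fgf8, Ihh, Wnt3a and Wnt7b.

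Genes of nerve transmission were grouped by symbol after the members had been seen. Potassium channel genes had 26 of 58, for example Kcnq3 and Kcna2, and calcium and sodium channel genes 6 of 16. Glutamate receptor genes had 12 of 22, such as Gria2 and Grin2a, transmitter transporters 9 of 16 (Slc17a7, Slc6a3 and Slc18a3 among them), and amine and acetylcholine receptors 12 of 28 (Adra2a, Drd4, Chrna4 and others). GABA receptor genes had 2 of 8 and claudins, of tight junctions, 3 of 10. Zinc-finger genes named Zfp had 5 of 24, with 394 genes in the family, and of 1134 olfactory receptor genes 8 had a WT MEF peak and 0 a shared peak. Housekeeping genes had 0 of 20 with any WT MEF peak, fibroblast genes 1 of 18 with 0 shared, and cyclin-dependent kinase inhibitors 2 of 7 with 0 shared. A peak list holds no expression, so the fibroblast identity and the Jmjd3 deletion could not be checked further here.

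**Figure D4:**
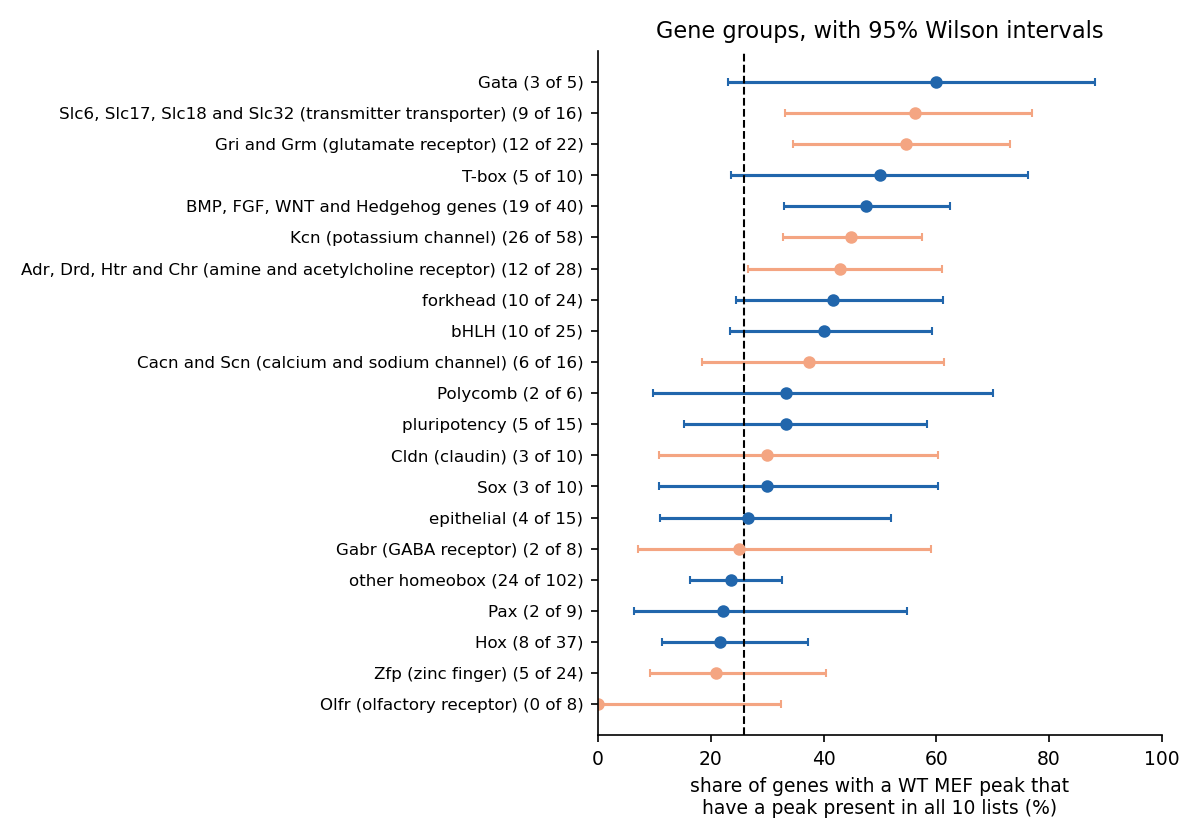
Share of genes with a WT MEF peak within 5 kb of a TSS that have a shared peak (percent, points, with 95% Wilson intervals) for gene lists (blue) and symbol families (orange); the numbers behind each share stand beside its name and the dashed line is the 25.8% over all genes. The lists were chosen with earlier results known and the families after their members were seen, so the intervals test nothing; the points run from 0 of 8 for olfactory receptors to 3 of 5 for Gata genes.

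The score of a peak was ranked only within its own list, as a percentile with 100 the best, and it belongs to the lists that chose the members, so it is given without a test. In MEFs the median percentile of the shared peaks was 88.8 (WT) and 77.5 (KO). By day 5 of OSKM it was 88.0 in WT FLAG, 85.0 in WT JMJD3, 85.7 in KO FLAG and 89.1 in KO JMJD3. By day 10 it was 84.7, 74.1, 85.3 and 84.4 in the same order. The lowest medians were those of the shortest lists, where shared peaks are a larger part of the whole: they overlapped 34.4% of the day 10 WT JMJD3 list and 26.0% of the KO MEF list, against 14.9% of the WT MEF list itself and 15.9% to 21.5% of the other 7. The median rank, counted from the best peak, ran from 714.5 to 927 across the 10 lists. Other WT MEF peaks that recurred in a list had medians of 47.1 to 59.6 there.

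**Figure D5:**
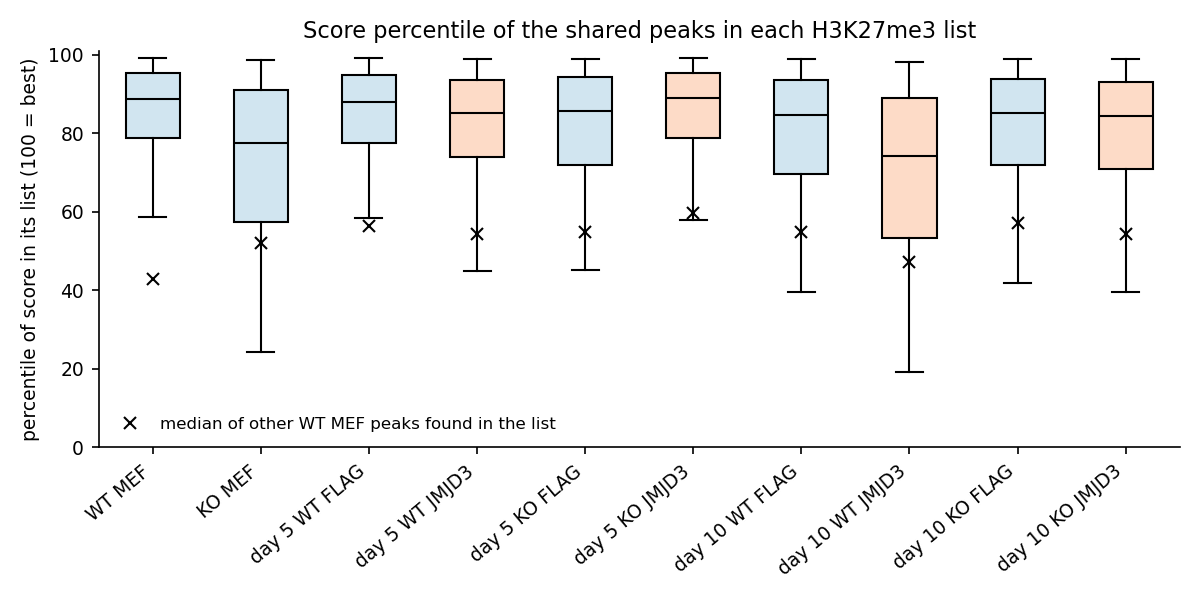
Percentile of the peak score within each H3K27me3 list (vertical axis, 100 is best) for the 1038 shared peaks; boxes show quartiles and median, whiskers the 5th and 95th percentiles, orange boxes JMJD3 overexpression and blue boxes the rest. Crosses are the medians of other WT MEF peaks found in the same list; the box medians lie between 74.1 (day 10 WT JMJD3) and 89.1 (day 5 KO JMJD3).

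Single peaks kept their order only in part. Over 45 pairs of lists, Spearman's rho of the 1038 percentiles ran from 0.286 to 0.722 with a median of 0.505, a description over peaks that share genome position and base composition. All 10 percentiles were at least 50 for 548 shared peaks (52.8%), at least 75 for 194, at least 90 for 59 and at least 99 for 5. In contrast, 66 had at least 1 percentile under 10. The peaks at the bottom were low in 1 or 2 lists only. The peak at Mmp25 (a membrane metalloprotease) was at 0.312 in day 10 WT JMJD3 and between 18.2 and 85.1 elsewhere. Rasl10b (a small GTPase) was at 0.312 in the same list and at 1.37 in day 5 KO FLAG. Artn (a ligand of the GDNF family) and Dcc (a netrin receptor) were at 0.331 in day 10 WT FLAG, and Srcin1 (a regulator of Src) at 0.547 in KO MEFs.

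The 10 leading peaks, with a worst percentile of at least 98.1, were of both kinds shown above. Gm9945, Insm2 (a zinc-finger factor of neuroendocrine cells), Egr4 and Ajm1 were GC-rich, with 74 to 121 CG dinucleotides per peak, and 0 of these 4 overlapped a KLF4 or JMJD3 peak. The other 6, at CT010467.1, Gm10800, Gm33838 and Aida, 7524 bp upstream of Gm28502 near Ly6c2, and 20332 bp upstream of Gm25352, had 7 to 54 CG dinucleotides and 16.9% to 85.7% repeat-masked bases. All 6 overlapped a KLF4 peak in both KLF4 lists. Across the set, 9 shared peaks were over 50% repeat-masked, including those at Gm10801, Gm21738 and Exoc3l2. Of these 9, 7 overlapped a KLF4 peak of the FLAG list, compared with 2.29% of all WT MEF peaks. The part of repeated sequence in the presence of these peaks in every list was not tested.

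Pluripotency genes with a shared peak were Esrrb (a nuclear receptor of naive pluripotency), Utf1 (a chromatin factor of stem cells), Lin28a (an RNA-binding protein), Prdm14 (a factor of germ cells) and Klf4, 5 of 15 with a WT MEF peak. At Esrrb (chr12:86422069-86423068), 686 bp downstream of the TSS, the percentile was 99.0 in WT and 97.4 in KO MEFs, 96.9 to 99.8 in the 4 day 5 lists and 94.8 to 98.5 in the 4 day 10 lists. At Utf1 it was 99.4 and 99.1 in MEFs, 98.5 to 99.8 at day 5, and 89.6, 94.3, 93.1 and 94.7 at day 10 in WT FLAG, WT JMJD3, KO FLAG and KO JMJD3. Both peaks thus ranked in the upper part of each list, with and without JMJD3. Lin28a was lowest in KO MEFs (73.9) and between 90.3 and 99.3 in the other 9 lists, and Prdm14 was lowest in day 10 KO FLAG (74.8) and day 10 WT JMJD3 (81.4) and above 91 elsewhere. The Lin28a peak was itself near the edge of the rule, with a smallest overlap of 16 bp, and of these 5 peaks the one at Esrrb (563 bp) was overlapped by 500 bp in every list, those at Utf1, Prdm14 and Klf4 by 481, 401 and 346 bp at the least.

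At Klf4 the percentiles were highest in the day 10 lists. Its shared peak (chr4:55529807-55530806), in an exon 2159 bp from the TSS, was at percentile 46.8 in WT and 16.4 in KO MEFs. At day 5 it was at 62.6, 64.7, 64.3 and 78.1 in WT FLAG, WT JMJD3, KO FLAG and KO JMJD3, and at day 10 at 99.3, 98.9, 99.1 and 99.0. These are ranks within lists of 6954 and 4113 peaks in MEFs, 5064 to 6539 at day 5 and 3045 to 5376 at day 10, and give no change in the mark. The peak also overlapped a peak in all 4 KLF4 and JMJD3 lists. Klf4 is among the genes that the OSKM viruses carried, and reads from a vector and from the chromosomal gene cannot be told apart in the lists.

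Epithelial genes with a shared peak were Cldn7 (a tight junction protein), Ocln (occludin), Ovol1 and Grhl2 (transcription factors of epithelia), 4 of 15. Each percentile is a rank within its own list, and list length differed at day 10, from 5131 (FLAG) to 3045 (JMJD3) in WT and from 5376 to 4878 in KO, so that values of different lists are set side by side and give no change in the mark. All 4 percentiles were lower in the day 10 WT JMJD3 list than in the WT FLAG list: 84.4 against 92.1 at Cldn7, 39.3 against 69.5 at Ocln, 36.7 against 71.6 at Ovol1, and 60.3 against 90.2 at Grhl2. The median of all shared peaks was also lower in that list, 74.1 against 84.7. In KO cells at day 10, the JMJD3 value was lower than the FLAG value at Cldn7 (85.5 against 93.3), Ocln (67.6 against 79.4) and Grhl2 (24.8 against 95.5), and about level at Ovol1 (86.3 and 86.0). At day 5 these 4 peaks were at 90.6 or above in all 4 lists. With 1 library per group these differences have no replicate check.

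Of 6 Polycomb genes with a WT MEF peak, 2 had a shared peak, among them Cbx8, which encodes a chromodomain subunit of PRC1. At Cbx8, 1921 bp upstream of the TSS, the percentile was 59.9 in KO MEFs and 76.8 to 97.2 in the other 9 lists.

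Binding of KLF4 and JMJD3 was not used to choose the members. A KLF4 peak of day 5 FLAG cells (10655 peaks) overlapped 32 shared peaks (3.08%, 2.19 to 4.32) and 2.15% (1.81 to 2.55) of the other WT MEF peaks, a difference of 0.936 points whose interval included 0 (-0.0410 to 2.22). With JMJD3 (14391 peaks) the numbers were 58 (5.59%, 4.35 to 7.16) and 3.89% (3.42 to 4.41), a difference of 1.70 points (0.354 to 3.33), with 4.14% over all WT MEF peaks. Without the peaks over 50% repeat-masked these differences were 0.256 points (-0.624 to 1.44) and 1.09 points (-0.205 to 2.68), and both intervals included 0. Against the peaks in 9 lists, with no peak left out, they were 1.14 points (-0.485 to 2.61) and 0.648 points (-1.64 to 2.75). Those intervals also included 0. The direction varied with the score. In the best-scoring 25%, 2.85% of 842 shared and 5.90% of 898 other peaks overlapped a KLF4 peak of FLAG cells, a difference of -3.05 points (-5.02 to -1.13), and for KLF4 with JMJD3 it was -4.66 points (-7.21 to -2.13). In the next 25% the differences were 1.95 points (-0.0649 to 5.90) and 0.753 points (-1.76 to 5.09), with intervals that include 0. In the class below, with 17 shared peaks of which 2 and 3 overlapped, they were 10.2 points (1.69 to 32.8) and 15.2 points (3.72 to 38.6), and of the 7 in the lowest class 0 overlapped.

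KLF4 peaks of both lists overlapped 26 shared peaks, 32 were overlapped in the JMJD3 list alone and 6 in the FLAG list alone. Of the 32, 25 met the CpG island criteria and 24 lay within 1 kb of a TSS. Among the 116 other WT MEF peaks overlapped in the JMJD3 list alone these numbers were 69 and 86. Among listed genes these included Hoxd1, Foxi3, Wnt2b, Bmp8a and Fgf15, while Cldn7 and Klf4 were overlapped in both lists and Ovol1 in the FLAG list alone. The FLAG-JMJD3 list of 14067 positions met 5 shared peaks (0.482%, 0.206 to 1.12) and 1.30% (1.04 to 1.62) of the others, a difference of -0.820 points (-1.24 to -0.129), with 1.18% over all WT MEF peaks. The low share was not particular to the shared peaks. It was 0.599% for peaks in 9 lists, a difference of -0.117 points (-1.09 to 0.621), and 0 of 468 for peaks in 8 lists. The 5 shared peaks were at CT010467.1, upstream of Gm25352, in an intron of Osbp2, at Nol4l and at Klf4. The OSlowKM list of 2284 positions met 2 shared peaks, upstream of Gm25352 and at Klf4, and 0.115% of all WT MEF peaks.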

How the data were processed

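Of the 20 samples, 14 have a peak list: H3K27me3 in 10 groups, KLF4 in 2 and anti-FLAG (JMJD3) in 2, with 1 library per labelled group. Input and H3K27ac samples (6) were left out.

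The authors aligned reads to mm10 with bowtie2 and called peaks with DFilter (H3K27me3) or MACS2 (KLF4, JMJD3); the submitters' processing notes give Bowtie2 2.2.0. A Drosophila spike-in was added for H3K27me3, and its use in peak calling was not given. The labels call the OSKM delivery lentiviral, the protocol retroviral. The deposited H3K27me3 lists give 1000 bp intervals and a score of the authors' peak caller from 6.56 to 200, of unstated scale, used here only as a rank within its list (ties shared). Every other column used was a position, and the JMJD3 lists give 1 bp positions. Read numbers were not used here; a deeper library can give a longer list, and thus set which peaks are shared.

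Overlap was at least 1 bp. TSSs came from the GENCODE M21 basic set, measured from the peak midpoint, and a gene had a peak when a midpoint lay within 5 kb. Sequence and soft-masked repeats came from RefSeq GRCm38.p6, the build of mm10. Shares carry 95% Wilson intervals and differences Newcombe intervals. Overlaps were checked against bedtools 2.31.1 on simulated lists. Scripts used pysam 0.24.0, samtools 1.23.1 and, under Python 3.11.15, scipy 1.17.1 with numpy 2.4.6.

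The members and gene lists were chosen with earlier results of these data known. Peaks and genes were named by rule: the 10 domains with the most shared peaks, the 10 best and 5 lowest by worst percentile, listed genes, the best ranked peaks overlapping KLF4 or JMJD3, the 5 farthest from a TSS and the 3 nearest to each side of the overlap threshold. The 4 CpG-island sequences, the repeat-masked peaks, the JMJD3-overlapping peaks, those of chromosome X and the symbol families were chosen after their values were seen. Some genes that these rules name are not reported here. Alternatives covered the overlap rule, list length, score, each list left out, and the distance and CpG thresholds.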

Additional observations from a re-analysis of the deposited data

Results flagged for a closer look

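In day 5 cells the median percentile of the shared peaks differed in opposite directions between the FLAG and JMJD3 lists of the 2 genotypes: JMJD3 minus FLAG was -2.94 points in WT cells (88.0 with FLAG, 85.0 with JMJD3) and 3.40 points in KO cells (85.7 and 89.1). The difference between genotypes was not tested, since each value is 1 library. List length moved the same way, from 6428 to 5064 peaks in WT and from 5643 to 6539 in KO cells, and its part in the result was not tested. At day 10 the same difference was -10.6 points in WT cells (lists of 5131 and 3045 peaks) and -0.885 points in KO cells (5376 and 4878). These are ranks within lists of unequal length and give no change in the mark.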

How the results depend on the processing

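Every alternative was one value against another with no test. Of 146 values, 108 stayed within the interval of the reported share or median, or within 1.5 times the reported count. Another 36 moved outside these limits and 2 changed sign. Leaving out a list gave 81 of the 146 values, and 77 of the 81 stayed. Such a set always holds every shared peak, so its agreement is partly built in. Among the other alternatives, more values moved or changed sign than stayed. Leaving out each of the other 9 lists gave 1046 to 1321 shared peaks, 81.0% to 81.8% within 5 kb of a TSS, 51.5% to 53.9% with CpG island criteria, 7.78% to 10.2% with a neighbour within 10 kb, 2.70% to 3.34% and 5.15% to 6.02% overlapping KLF4 (FLAG and JMJD3 lists), 812 to 1007 protein-coding genes, 32 to 45 homeobox genes and a median WT MEF percentile of 86.6 to 88.7.

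Asking for an overlap of 500 bp in every list left 528 peaks and 417 genes, 9 of them homeobox genes, with CpG island criteria in 59.3%, a neighbour in 2.65%, KLF4 in 4.36% and 7.58%, and a median percentile of 91.2. Counting a peak within 1 kb as present gave 50 homeobox genes, a neighbour for 11.4% and a percentile of 87.5. The better-scoring 50% of each list left 548 peaks, 463 genes and 17 homeobox genes, with 86.3% near a TSS, 65.0% with CpG island criteria, 4.20% with a neighbour and a percentile of 93.7. With every list at the length of the shortest these were 84.4%, 60.3%, 4.52% and 91.9. A TSS distance of 1 kb gave 59.1% of peaks and 18 homeobox genes, 10 kb gave 90.0% and 53, and protein-coding TSSs alone gave 74.9%. With GC of 55% and a ratio of 0.65, 43.0% met the CpG criteria. A neighbour was found within 5 kb for 3.76% and within 50 kb for 25.4%. Starting from day 5 WT FLAG peaks gave 1070 shared peaks.

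The remaining alternatives were chosen after seeing the data. In the best-scoring 25% of the WT MEF list the difference between shared and other peaks was 7.10 points for TSS distance and 21.0 points for CpG island criteria, and it turned to -3.05 and -4.66 points for the KLF4 lists, which was not so in the next 25%; the cause was not tested. Leaving out peaks over 50% repeat-masked left 1029 shared peaks and KLF4 differences of 0.256 and 1.09 points, with intervals that include 0. No paired analysis by replicate was possible because the labels carry no replicate numbers and each group is 1 library. The 4 differences of JMJD3 from FLAG within a day and genotype form pairs. They are given as values without a test, since the scores belong to the lists that chose the peaks.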
